A study of Mus musculus with 6 samples.

Results

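The 9 genes described here encode DNA-binding partners of the transcription factor IRF8, together with ID2, in microglia, the resident macrophages of the brain. They were chosen by name as members of the PU.1 family (Spi1, Spib), the BATF family (Batf, Batf2, Batf3) and the Ikaros family (Ikzf1, Ikzf2, Ikzf3), with Id2 added. They are 9 of 49585 genes in the count files. The study sequenced bulk RNA of microglia sorted by flow cytometry from 6 male mice aged 3 months, 3 wild type (WT) and 3 labelled IRF8KO, with each brain giving its own library and no treatment in either group. The label IRF8KO stands for a knockout of Irf8. The allele, whether it acts in all cells or in some, the strain and the sorting gate are not given in the sources used here.

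IRF8 binds DNA poorly alone and gains affinity by pairing with other factors. With PU.1, the ETS factor that founds the myeloid lineages, or its relative SPIB, it binds ETS-IRF composite elements. With heterodimers of a BATF protein and a JUN protein it binds AP-1-IRF composite elements. Ikaros proteins are zinc-finger factors best known from lymphocytes, which act largely through corepressor complexes. ID2 has no DNA-binding region and holds E proteins away from DNA, and in dendritic cells of type 1 it works beside IRF8 and BATF3. In microglia PU.1 and IRF8 are both known as lineage factors.

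Gene counts ranged from 3658917 to 11098363 per library. Irf8 itself was counted in every library, at 795, 851 and 1403 counts per 1000000 counts (CPM, library sizes scaled by TMM, edgeR's trimmed mean method) in WT replicates 1 to 3 and at 743, 650 and 850 CPM in IRF8KO replicates 1 to 3, so the label could not be checked by its level, and every direction below rests on the labels. Microglial markers summed to between 44200 and 73380 CPM in WT and between 35820 and 50310 CPM in IRF8KO, with Csf1r and Tmem119 highest and Sall1 at 0 counts in all IRF8KO libraries. Of these 12 markers 5 were called lower, P2ry12 among them (848 ± 384 and 48.4 ± 44.8 CPM, SD, n = 3 each), and 1 higher. Markers of border-associated macrophages, with Stab1 and Pf4 highest, summed to between 609 and 834 CPM in WT and between 3707 and 4911 CPM in IRF8KO, with 7 of 10 called higher, and Lyve1 and Cd209f at 0 counts in all 6 libraries. WT replicate 3 stood apart from WT replicates 1 and 2, and its log2 difference from them rose with the GC content of genes (Spearman correlation 0.615 over 11034 genes, which are no independent replicates). IRF8KO replicate 2 differed from IRF8KO replicates 1 and 3 in the other direction (-0.435). The remaining libraries were not set against GC content singly. Between the genotypes, the mean log2 difference (IRF8KO minus WT) also rose with GC content (Spearman correlation 0.276 over the same 11034 genes). IRF8KO replicate 2 also held 1350 counts of the neutrophil gene S100a8 and 386 of the monocyte gene Chil3, which had at most 5 in any other library.

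The level of Batf3 differed most among the 9 genes. It fell in IRF8KO to 1.01 ± 1.24 CPM from 23.0 ± 1.86 CPM in WT (SD, n = 3 each), which left Batf as the main BATF transcript. Spi1, the most abundant, did not pass the test, nor did Ikzf1, Batf, Batf2, Ikzf2 and Id2. Spib and Ikzf3 were at or near 0 counts in both genotypes. Thus 7 of the 9 genes had enough counts to be tested, and 1 of the 7 (14.3%) was called, against 19.1% of all 11041 tested genes (adjusted p under 0.05 in the 2-sided quasi-likelihood test of edgeR, with Benjamini-Hochberg adjustment over all tested genes), of which 9.64% were higher and 9.46% lower. With 1 library left out, the number of genes called over the whole table lay between 910, without IRF8KO replicate 3, and 4003, without WT replicate 3. The groups did not overlap for 3 of the 7 (Batf, Batf2 and Batf3), against 37.9% of all tested genes (20% higher and 17.9% lower in IRF8KO). In bulk RNA of this kind, fewer cells of a type and less RNA per cell cannot be told apart, and the part of border-associated macrophages in any of these differences was not tested.

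**Figure D1:**
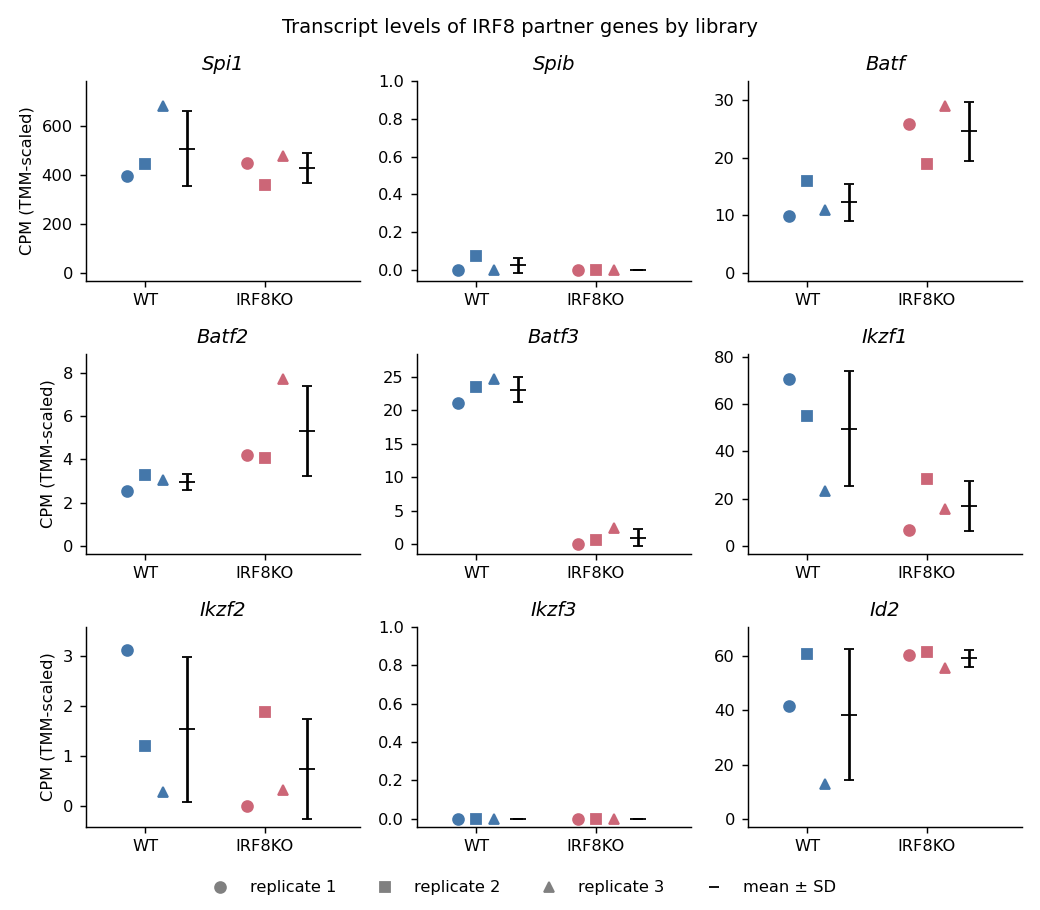
Scaled counts of the 9 genes (CPM, linear axes, a separate scale for each gene) in 3 WT and 3 IRF8KO libraries. Each symbol is 1 library, the same symbol marks the same replicate number, and black bars show the mean and SD. Batf3 lay between 21.0 and 24.7 CPM in WT and between 0 and 2.39 CPM in IRF8KO, whereas Spi1, Ikzf1, Ikzf2 and Id2 overlapped between the groups.

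PU.1, encoded by Spi1 (ENSMUSG00000002111, chromosome 2, 91082390 to 91115756, plus strand), is the ETS factor on which macrophage and microglial development depends. Spi1 was counted at 392, 445 and 679 CPM in WT replicates 1, 2 and 3 and at 449, 358 and 474 CPM in IRF8KO replicates 1, 2 and 3. The groups overlapped, and only WT replicate 3 lay above all IRF8KO libraries. The log2 fold change of -0.24 (SE 0.31, 95% interval -0.92 to 0.43) did not pass the test (adjusted p = 0.620), and the interval excludes a change of 2-fold in either direction. Without WT replicate 3 it was 0.059, with an adjusted p of 0.824. Scaling by library size alone called Spi1 lower at -0.71 (adjusted p = 0.013). Under that scaling the median of all tested genes moved from -0.11 to -0.61, so relative to it Spi1 stood at -0.10.

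Per kilobase of exon, the scale on which genes can be set side by side, Spi1 reached 188 ± 56.6 CPM per kb in WT and 158 ± 22.8 in IRF8KO, above every other gene of the 9. Its high value in WT replicate 3 was shared by Irf8. Of the summed level of Spi1 and Irf8 per kilobase, Spi1 made up 56.4%, 57.8% and 55.9% in WT replicates 1, 2 and 3 and 61.3%, 59.0% and 59.4% in IRF8KO replicates 1, 2 and 3. These shares lay closer together within each genotype than the levels did, and those of the genotypes did not overlap. As Irf8 is the targeted gene and its counts do not tell an intact transcript from an altered one, the ratio describes counted RNA only.

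SPIB, the closest relative of PU.1 and a factor of B cells and plasmacytoid dendritic cells, was almost without counts. Spib (ENSMUSG00000008193, chromosome 7, 44525993 to 44532071, minus strand) had 1 count in WT replicate 2 and 0 in the other 5 libraries. A count of 0 is given here a limit of 3 counts per library, which is at most 0.584 CPM, in WT replicate 1, the shallowest. The exact 2-sided 95% interval of a 0 count, the kind used for single libraries of Batf3, ends somewhat higher, at 3.69 counts or 0.718 CPM in that library. Intervals and floors of this kind cover counting error only, since the libraries carry no molecular identifiers. Of the plasmacytoid dendritic cell markers, Klk1, Dntt, Ly6d and Cd209d had 0 counts in all 6 libraries, while Bst2 and Cox6a2 were the highest and the list summed to between 48.8 and 88.9 CPM in WT and between 230.5 and 313 CPM in IRF8KO.

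BATF and BATF3 are short basic leucine zipper factors without a transactivation region. BATF proteins pair with JUN proteins and bring IRF8 or IRF4 to AP-1 sites. BATF3 is known above all for the development of type 1 dendritic cells. Batf3 (ENSMUSG00000026630, chromosome 1, 191097847 to 191108945, plus strand) had 108, 331 and 179 counts in WT replicates 1, 2 and 3 and 0, 7 and 22 counts in IRF8KO replicates 1, 2 and 3. Scaled, these were 21.0, 23.4 and 24.7 CPM in WT and 0, 0.628 and 2.39 CPM in IRF8KO. The lowest WT library thus lay far above the highest IRF8KO library, whose exact 95% counting interval ended at 3.61 CPM. The log2 fold change was -4.44 (SE 0.78, 95% interval -6.15 to -2.74, adjusted p = 0.0025), and it was called in all 6 fits that left out 1 library, with values between -5.89 and -3.94. It was -4.35 without WT replicate 3, -4.14 without IRF8KO replicate 2 and -3.94 without IRF8KO replicate 1.

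Batf (ENSMUSG00000034266, chromosome 12, 85686669 to 85709087, plus strand), which is known from T and B cells, went the other way without passing the test. Its values were 9.92, 15.9 and 10.9 CPM in WT replicates 1, 2 and 3 and 25.8, 18.9 and 29.0 CPM in IRF8KO replicates 1, 2 and 3. Every IRF8KO library lay above every WT library. The log2 fold change of 0.99 (SE 0.36, 95% interval 0.20 to 1.79) had an unadjusted p of 0.018 and an adjusted p of 0.076. It was not called in any of the 16 alternatives. With an offset for GC content and gene length it was 0.13, for a transcript of 56.65% GC. Batf2 (ENSMUSG00000039699, chromosome 19, 6140983 to 6172476, plus strand), an interferon-inducible member of the family in macrophages, was low throughout. It had 2.53, 3.26 and 3.03 CPM in WT and 4.17, 4.04 and 7.70 CPM in IRF8KO, in replicate order, with no overlap and a log2 fold change of 0.84 (SE 0.57, 95% interval -0.41 to 2.09, adjusted p = 0.328). IRF8KO replicate 3 lay well above the other libraries, and without it the log2 fold change was 0.49.

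The makeup of the family differed between the genotypes. Per kilobase of exon, Batf3 made up 62.0%, 53.8% and 63.3% of the BATF transcripts in WT replicates 1, 2 and 3 and 0%, 2.54% and 5.94% in IRF8KO replicates 1, 2 and 3. Batf made up 35.5% ± 5.25 in WT and 86.9% ± 4.92 in IRF8KO, and Batf2 4.79% ± 0.115 and 10.2% ± 1.94 (SD, n = 3 each), shares that must go up when Batf3 goes down. In each WT library Batf3 was the higher of Batf3 and Batf per kilobase, and in each IRF8KO library Batf was.

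**Figure D2:**
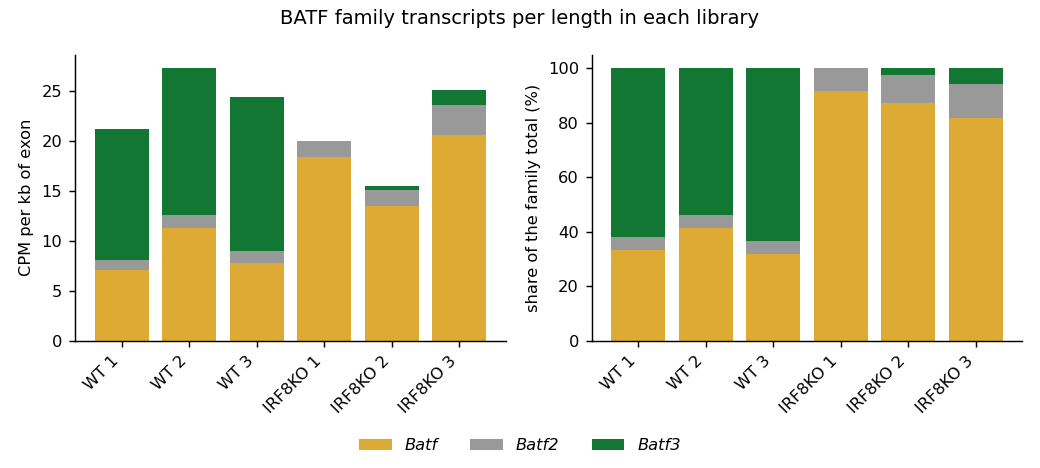
BATF family transcripts in each library, as CPM per kilobase of merged exons (left) and as the share of their sum in percent (right). Each bar is 1 library, stacked by gene. Batf3 is the largest part of all 3 WT bars, at 53.8% to 63.3%, and at most 5.94% of the IRF8KO bars.

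Upstream sequence was read from the RefSeq promoter windows of GRCm38.p6, which run from 250 bases before to 50 bases after a start and held 6 windows for 5 of the 9 genes (Spib, Batf, Batf3, Ikzf1 and Id2). Spi1, Batf2, Ikzf2 and Ikzf3 were not analysed here. The parts of the windows of Batf3 and Batf that lie outside annotated exons are shown because Batf3 fell and Batf did not, with a match to the PU box GAGGAA in capitals. They are chr1:191098238-191098324 and chr12:85686470-85686668, each on the plus strand. The Batf3 stretch lies downstream of the gene's outermost start in GENCODE M21, within its span. The Batf stretch ends at the base before the start of that gene.
Batf3: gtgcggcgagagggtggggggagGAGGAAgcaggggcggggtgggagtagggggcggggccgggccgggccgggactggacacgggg
Batf: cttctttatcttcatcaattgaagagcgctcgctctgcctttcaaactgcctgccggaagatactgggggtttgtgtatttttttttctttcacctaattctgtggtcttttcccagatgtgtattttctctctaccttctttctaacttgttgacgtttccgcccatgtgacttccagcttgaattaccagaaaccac
The Batf3 window is GC-rich, at 75.7%, against 49.7% for Batf. The PU box, searched after the windows had been read, was found in the Batf3 window alone of the 6, and in 28.3% of all 32851 windows. On both strands, none of the 6 windows held the ETS-IRF composite (GGAA and GAAA parted by any 2 bases, 2.72% of all windows), the AP-1-IRF composites (TGANTCA, any 4 bases and GAAA, 0.119%, or GAAA followed at once by TGANTCA, 0.125%), the interferon element (GAAA and GAAA parted by any 2 bases, 3.44%), the longer PU.1 motif GAGGAAGT (3.20%, which contains the PU box), the AP-1 site TGANTCA (7.81%, which the AP-1 composites contain) or the E-box CAGGTG (20.2%). This says only that these letters are not in these windows.

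Markers of type 1 dendritic cells, the cells known to need BATF3 and IRF8, were counted unevenly. Clec9a had 0 counts in all 6 libraries, and Xcr1 had 10 counts in WT and 3 in IRF8KO in all. The list of 7 markers summed to between 76.0 and 123 CPM in WT and between 106 and 127 CPM in IRF8KO, with Cadm1 and Zbtb46 highest. Zbtb46 rose from 4.62 ± 1.23 to 25.7 ± 4.16 CPM (SD, n = 3 each), with a log2 fold change of 2.49 (adjusted p = 0.0014). Naaa, the other called gene of the list, went the same way as Batf3. It fell from 40.7, 27.8 and 17.5 CPM in WT to 0.963, 0.718 and 0.759 CPM in IRF8KO, in replicate order (log2 fold change -5.13, adjusted p = 5.2e-05), and the part of these cells in the fall of Batf3 was not tested. Cadm1 did not pass the test (64.1 ± 12.1 and 88.4 ± 11.4 CPM, adjusted p = 0.257), and its log2 fold change of 0.46 was -0.06 under library size alone, which moves the median of all tested genes from -0.11 to -0.61.

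Over the 6 libraries, Adamtsl2, Pecam1 and Mycl had the pattern most like that of Batf3 among 6173 genes whose mean level was 10 CPM or more, with Pearson correlations of log2 CPM of 0.994, 0.989 and 0.987. The libraries share the genotype split, so any gene that falls as steeply scores high. Mycl, which encodes L-MYC, had 61.5, 59.1 and 84.6 CPM in WT and 0, 0.538 and 1.41 CPM in IRF8KO, in replicate order. Its log2 fold change was -6.59 (SE 0.62, adjusted p = 3.5e-05). Adamtsl2 fell from 21.6 ± 9.44 to 0.969 ± 1.18 CPM (adjusted p = 0.0033) and Pecam1, an adhesion protein, from 19.1 ± 1.696 to 1.95 ± 1.26 CPM (adjusted p = 0.0014; SD, n = 3 each).

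Protein-coding neighbours of Batf3 did not move as a block. They were looked at after the values of Batf3 had been seen. Of 10 such genes within 200 kb, 6 were tested, of which 3 fell and 1 rose, where 9.46% of all tested genes were lower and 9.64% higher. Nenf, 198 kb away, rose from 33.7 ± 13.3 to 159 ± 37.0 CPM (log2 fold change 2.24, adjusted p = 9.7e-04). Atf3, which encodes a bZIP factor and lies 61.4 kb away, fell from 68.2 ± 48.7 to 14.9 ± 8.66 CPM (adjusted p = 0.013), and Rps6kc1, 186 kb away, from 59.9 ± 12.01 to 16.1 ± 8.20 CPM (adjusted p = 0.0045). Angel2 fell from 26.0 ± 12.9 to 8.51 ± 3.99 CPM (adjusted p = 0.041). Tatdn3, 34.9 kb away, did not pass the test (7.10 ± 0.339 and 5.27 ± 4.21 CPM, adjusted p = 0.680; SD, n = 3 each). Nsl1, the nearest at 11.4 kb, had too few counts to be tested, 100 in WT and 9 in IRF8KO. Leaving out single libraries raised the adjusted p of Atf3 to 0.095 and that of Angel2 to 0.181, and left Nenf and Rps6kc1 called.

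Ikaros, encoded by Ikzf1 (ENSMUSG00000018654, chromosome 11, 11685003 to 11772926, plus strand), is the family member found in nearly all blood lineages. Ikzf1 had 70.6, 55.2 and 23.0 CPM in WT replicates 1, 2 and 3 and 6.74, 28.1 and 15.7 CPM in IRF8KO replicates 1, 2 and 3. WT replicates 1 and 2 lay above all IRF8KO libraries, but WT replicate 3 lay below IRF8KO replicate 2, so the groups overlapped. The log2 fold change was -1.54 (SE 0.51, 95% interval -2.65 to -0.43), with an unadjusted p of 0.010 and an adjusted p of 0.053. It passed the threshold without WT replicate 3 (-1.81, adjusted p = 0.017) and without IRF8KO replicate 2 (-2.12, adjusted p = 0.022). It also passed in 4 of the other alternatives (DESeq2, no filter on low counts, at least 10 counts in every library, and the replicate number as a block), 6 of 16 in all. With any other single library left out it did not pass, with adjusted p from 0.117 to 0.197. The transcript has a GC content of 46.9%. WT replicate 3 and IRF8KO replicate 2, which made the groups overlap, differed from their groups along GC content (0.615 and -0.435). The remaining libraries were not measured for this. The part of GC content in the overlap was not tested. IRF8KO replicate 2 also held the neutrophil and monocyte RNA given above, whose part in its Ikzf1 level was not tested. An offset for GC content and length gave -1.10 with an adjusted p of 0.069.

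Helios, encoded by Ikzf2 (ENSMUSG00000025997, chromosome 1, 69531214 to 69687245, minus strand) and known from regulatory T cells, had few counts. Its counts were 16, 17 and 2 in WT replicates 1, 2 and 3 and 0, 21 and 3 in IRF8KO replicates 1, 2 and 3. The spread within each group exceeded the difference between them, and the log2 fold change of -0.93 (SE 1.20, adjusted p = 0.625) has a 95% interval from -3.55 to 1.69. It was -0.0065 without WT replicate 1 and -2.95 without IRF8KO replicate 2. Aiolos, encoded by Ikzf3 (ENSMUSG00000018168, chromosome 11, 98464902 to 98546031, minus strand) and made in B, T and NK cells, was without a count in any library. The limit of 3 counts is 0.212 CPM in WT replicate 2, the deepest after scaling, and 0.584 CPM in WT replicate 1. The exact 95% interval of a 0 count ends at 0.261 CPM and 0.718 CPM in these libraries. Per kilobase, Ikzf1 made up 98.4% ± 0.917 of the 5 Ikaros family transcripts in WT and 96.5% ± 1.05 in IRF8KO (SD, n = 3 each), with Ikzf4 and Ikzf5 at no more than 5 counts in any library.

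Lymphocyte markers were set beside these genes because Ikzf3 and Spib are lymphocyte factors. Among the B cell markers, Ms4a1, Pax5 and Blk had 0 counts in all 6 libraries, as Ikzf3 did, while Ighm and Cd79b carried the sum of 543 to 891 CPM in WT and 37.2 to 48.3 CPM in IRF8KO. Of 13 markers of T, NK and innate lymphoid cells, Cd3e, Cd3g, Cd8a, Ncr1, Gzma and Gata3 had 0 counts in every library. Il7r had 266 counts in WT and 0 in IRF8KO (adjusted p = 5.3e-04, edgeR), and Cd4 had 0 in WT and 104 in IRF8KO (adjusted p = 0.0024), so the sum joins opposite changes. The sum, with these genes highest, lay between 4.41 and 12.7 CPM in WT and between 4.17 and 5.74 CPM in IRF8KO.

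Id2 (ENSMUSG00000020644, chromosome 12, 25093799 to 25097140, minus strand) was counted at 41.4, 60.9 and 12.8 CPM in WT replicates 1, 2 and 3 and at 60.5, 61.5 and 55.4 CPM in IRF8KO replicates 1, 2 and 3. The IRF8KO libraries lay close together, and the WT libraries ranged from far below them to within them. The log2 fold change of 0.62 (SE 0.44, 95% interval -0.34 to 1.58) did not pass the test (adjusted p = 0.353). It was 0.24 without WT replicate 3. With library size alone it was 0.02, but relative to the median of all tested genes it was 0.63 there and 0.73 with TMM scaling. With the offset for GC content and length it was 1.04, with an adjusted p of 0.052, for a transcript of 45.1% GC. Per kilobase Id2 made up 90.9% ± 4.44 of the 4 ID transcripts in WT and 88.4% ± 3.63 in IRF8KO (SD, n = 3 each). The part of the Id2 window outside annotated exons, chr12:25096254-25096342 on the minus strand and within the span of the gene in GENCODE M21, is shown for its E-box, the class of site that E proteins bind, with the match to CAGCTG in capitals.
Id2: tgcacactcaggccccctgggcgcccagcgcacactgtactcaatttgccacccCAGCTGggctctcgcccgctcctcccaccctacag
This motif too was searched after the windows had been read, and 16.3% of all windows hold it.

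**Figure D3:**
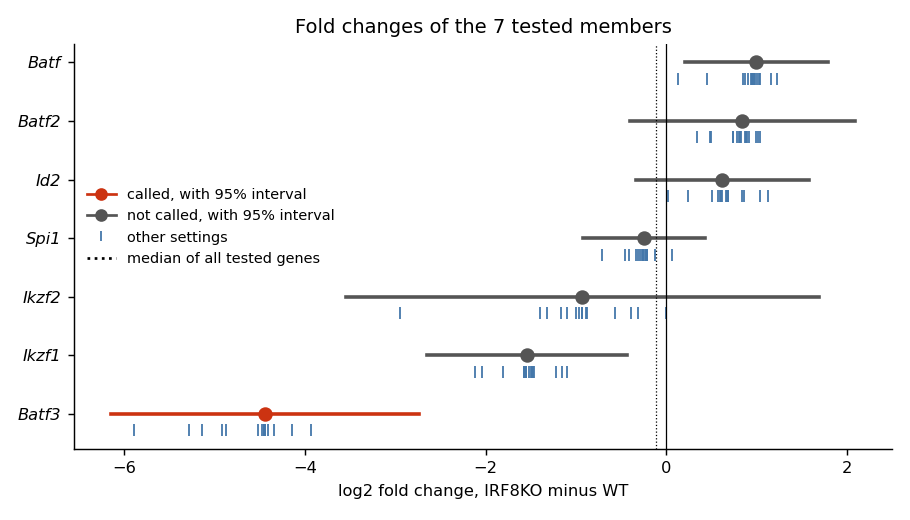
Log2 fold changes (IRF8KO minus WT) of the 7 tested genes, with 95% intervals, in red where called and in grey where not. Blue ticks under each gene show the values under the other settings and the dotted line the median of all tested genes, -0.11. Batf3 alone was called, at -4.44, and the intervals of Batf and Ikzf1 exclude 0 although their adjusted p of 0.076 and 0.053 missed the threshold.

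By mean level per kilobase in WT the order was Spi1, Id2 (15.7 ± 9.92 CPM per kb), Batf3 (14.4 ± 1.17), Batf (8.71 ± 2.29), Ikzf1 (8.59 ± 4.20), Batf2 (1.17 ± 0.148) and Ikzf2 (0.132 ± 0.125), followed by Spib and Ikzf3. Id2, Batf3, Batf and Ikzf1 were not all separated by their spread, since Id2 lay within its SD of each of the other 3 and Batf within its SD of Ikzf1. In IRF8KO the order was Spi1, Id2 (24.3 ± 1.33 CPM per kb), Batf (17.5 ± 3.65), Ikzf1 (2.92 ± 1.85), Batf2 (2.10 ± 0.823), Batf3 (0.629 ± 0.774) and Ikzf2 (0.0634 ± 0.0867), where Ikzf1 and Batf2, and likewise Batf3 and Ikzf2, were not separated by their spread (SD, n = 3 each).

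The proteins that these factors pair or compete with were read from gene lists. JUN proteins form the other arm of BATF heterodimers, and FOS proteins compete for it. Of 8 genes for JUN, FOS and ATF3, 5 were tested and all 5 were called, 4 lower and 1 higher, beside 19.1% of all tested genes called, with a median log2 fold change of -2.21 against -0.11 for all tested genes. Fosl2 rose from 5.25, 6.73 and 5.24 CPM in WT to 38.4, 46.0 and 25.2 CPM in IRF8KO, in replicate order, with no overlap (log2 fold change 2.66, adjusted p = 5.6e-04). The other 4 fell, and varied widely among the WT libraries. Jun had 736, 1545 and 49.8 CPM in WT replicates 1, 2 and 3 against 29.5, 48.2 and 54.4 CPM in IRF8KO (log2 fold change -4.14, adjusted p = 0.0065), so WT replicate 3 lay within the IRF8KO range. Junb had 886, 1798 and 391 CPM in WT and 329, 243 and 376 CPM in IRF8KO (-1.697, adjusted p = 0.027). Atf3 had 50.6, 123 and 30.9 CPM in WT and 24.6, 12.4 and 7.81 CPM in IRF8KO (-2.21, adjusted p = 0.013). For Junb and Atf3 every WT library lay above every IRF8KO library. Fos, named after its values were seen, had 643, 880 and 0.138 CPM in WT and 21.8, 11.2 and 17.6 CPM in IRF8KO (-4.92, adjusted p = 0.030). Markers of handling were 12 genes, immediate early genes and the heat-shock gene Hspa1a, 5 of them shared with this list. Of these, 11 were tested and 9 were called lower, beside 9.46% of all tested genes. Ier2 and Nr4a1 were not called. The 12 markers summed to 5902, 11310 and 847 CPM in WT replicates 1, 2 and 3 and to between 797 and 1075 CPM in IRF8KO. Their part in the result was not tested. Leaving out WT replicates 1, 2 and 3 and then IRF8KO replicates 1, 2 and 3 gave 5, 2, 6, 3, 4 and 1 called genes, and Fosl2 kept its call in all 6. Jund had 1 count in all, with 52.6% of its exons shared with another gene.

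Other ETS factors share the core site of PU.1. Of 16 such genes 14 were tested, and 4 were called, 3 lower and 1 higher, with a median log2 fold change of -0.57, beside 19.1% called and a median of -0.11 for all tested genes. Ets1, a lymphoid and endothelial factor, fell from 47.9, 55.9 and 32.7 CPM in WT to 3.69, 13.1 and 10.4 CPM in IRF8KO, with no overlap (log2 fold change -2.31, SE 0.44, adjusted p = 0.0039). Ets2, which acts downstream of growth factor signals, rose from 20.3 ± 4.68 to 48.6 ± 5.86 CPM (SD, n = 3 each), a log2 fold change of 1.27 with an adjusted p of 0.013. Etv3 and Gabpa fell with adjusted p of 0.037 and 0.036. Gabpa shares 6.98% of its exons with Atp5j, and its log2 fold change went from -3.11 to 0.73 when counts of both strands were summed. Leaving out WT replicates 1, 2 and 3 and then IRF8KO replicates 1, 2 and 3 gave 2, 1, 6, 1, 4 and 2 called genes. Spic, the PU.1 relative of iron-recycling macrophages, had 1 count in IRF8KO and 0 in WT.

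Ikaros proteins recruit NuRD and SIN3 corepressors. Of 15 genes for these subunits, CTBP1 and the remaining Ikaros proteins, 13 were tested and 0 were called by edgeR, with 4 at an unadjusted p under 0.05 and 0 called by DESeq2 or limma-voom, beside 19.1% of all tested genes called by edgeR. Their median log2 fold change was -0.36, beside -0.11 for all tested genes. Without WT replicate 3, 4 were called, of 4003 genes called in all. E proteins are the factors that ID2 binds. Of 6 genes for E proteins and the other ID proteins 4 were tested, with 1 called, beside the same 19.1%. Tcf12 fell from 6.76 ± 4.14 to 1.47 ± 0.437 CPM (SD, n = 3 each, log2 fold change -2.17, adjusted p = 0.049), a call that was lost without any library other than WT replicate 3, with adjusted p up to 0.206. Tcf3, the most abundant E protein gene per kilobase, had 92.3 ± 29.1 CPM in WT and 68.0 ± 16.1 CPM in the IRF8KO libraries (SD, n = 3 each) and did not pass the test (adjusted p = 0.343). Of the summed level of Id2 and the 3 E protein genes per kilobase, Id2 made up 46.0%, 54.4% and 14.2% in WT replicates 1, 2 and 3 and 53.4%, 59.4% and 62.1% in IRF8KO replicates 1, 2 and 3. The share in WT replicate 2 lay above that in IRF8KO replicate 1.

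Genes known as targets of PU.1 in macrophages moved in both directions while Spi1 did not pass the test. Of 18 genes, all tested, 3 were higher (Cybb, Lyz2 and Tyrobp) and 3 lower, against 19.1% of all tested genes called, and their median log2 fold change was -0.30. Cx3cr1, the fractalkine receptor, fell from 2777, 2719 and 2396 CPM in WT to 452, 728 and 586 CPM in IRF8KO (log2 fold change -2.16, adjusted p = 9.6e-04). Aif1, the gene of the microglial marker IBA1, fell from 185 ± 25.1 to 46.4 ± 12.5 CPM (-1.997, adjusted p = 8.9e-04). Itgam, the integrin chain CD11b, had a log2 fold change of -2.36 (adjusted p = 7.3e-04), with 68.7% of its exons shared with another gene. Lyz2, lysozyme, rose from 366 ± 140 to 1119 ± 233 CPM (1.61, adjusted p = 0.0081), and its call was lost with the GC and length offset (0.99, adjusted p = 0.071). Tyrobp, the adaptor DAP12, named after its values were seen, rose from 2224 ± 1052 to 6972 ± 1238 CPM (1.65, adjusted p = 0.016; SD, n = 3 each), and kept its call in 2 of the 6 fits without 1 library. Csf1r, the textbook PU.1 target, had a log2 fold change of -0.61 and was not called (adjusted p = 0.338).

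Cybb is also among 9 genes known as joint targets of PU.1 and IRF8, of which 8 were tested, 2 were higher and 0 lower, beside 9.64% and 9.46% of all tested genes, with a median log2 fold change of -0.15. Cybb, the catalytic chain of the phagocyte oxidase, had 2.72, 0.0708 and 0 CPM in WT and 15.1, 35.1 and 11.3 CPM in IRF8KO, in replicate order (log2 fold change 4.74, SE 1.09, adjusted p = 0.011), and library size alone gave an adjusted p of 0.068. WT replicate 1 held 14 of its 15 WT counts, and without that library the log2 fold change was 8.44, against 3.995 to 5.03 without any other. Il1b, the cytokine interleukin-1 beta, had 1.95, 3.68 and 1.10 CPM in WT and 44.8, 26.8 and 15.6 CPM in IRF8KO (log2 fold change 3.63, SE 0.56, adjusted p = 9.9e-04). Both rose in IRF8KO with no overlap between the groups.

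Of 8 other factors of the type 1 dendritic cell circuit, Irf8 included, all were tested, 1 was higher and 1 lower, beside 19.1% of all tested genes called, with a median log2 fold change of -0.38. Nfil3, which acts ahead of Id2 in that circuit, rose from 16.1, 9.35 and 7.31 CPM in WT to 45.6, 28.4 and 32.8 CPM in IRF8KO (log2 fold change 1.71, SE 0.39, adjusted p = 0.0095). Zeb2, which opposes it, fell from 46.7, 43.5 and 17.0 CPM in WT to 8.67, 14.7 and 13.8 CPM in IRF8KO (-1.52, SE 0.42, adjusted p = 0.026). The groups overlapped for neither gene. Leaving out WT replicates 1, 2 and 3 and then IRF8KO replicates 1, 2 and 3 gave 1, 1, 3, 0, 2 and 1 called genes. Irf4, the closest relative of IRF8 and also a partner of PU.1 and BATF, was looked at after its values were seen. It had 1.34 ± 0.926 CPM in WT and 6.66 ± 2.98 CPM in the IRF8KO libraries (SD, n = 3 each, log2 fold change 2.29, adjusted p = 0.0505), which did not pass the threshold. The groups did not overlap, and Irf4 was called in 5 of 15 alternatives.

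**Figure D4:**
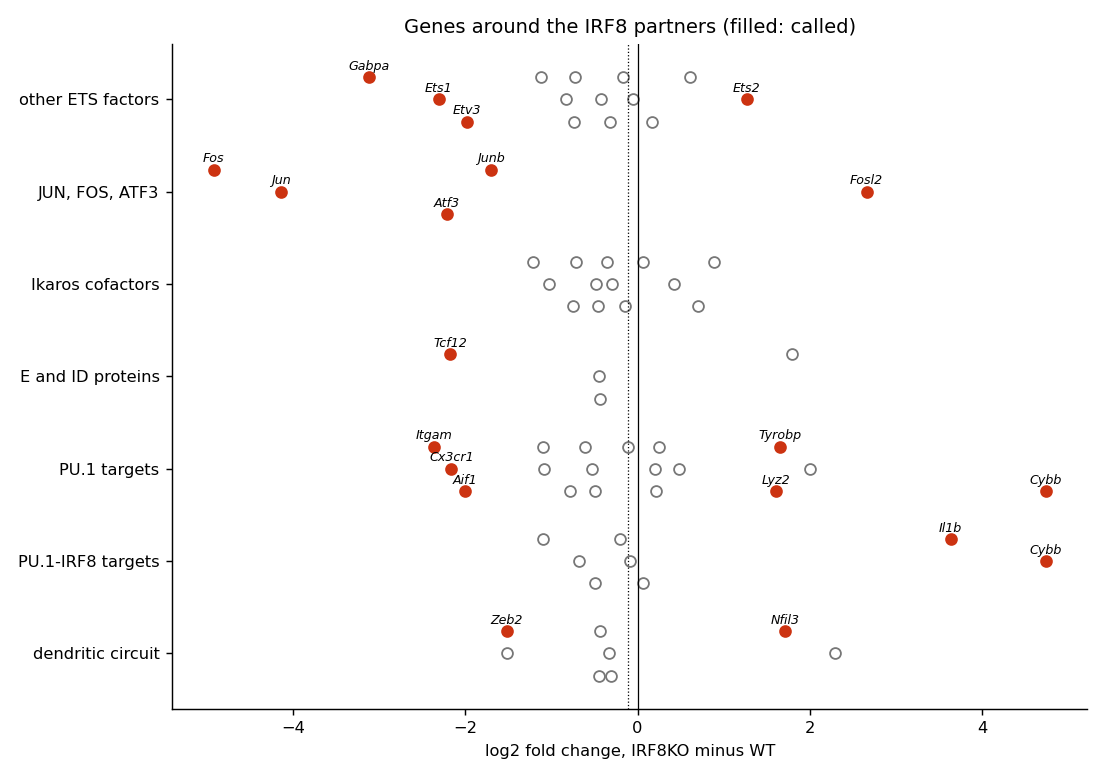
Log2 fold changes (IRF8KO minus WT) of the tested genes of 7 lists, 1 list per row, spread vertically for legibility. Filled points were called and are named, open points were not, and the dotted line is the median of all tested genes, -0.11. All 5 points of the JUN, FOS and ATF3 row are filled, with Fosl2 alone on the right, and none of the 13 points of the row of Ikaros cofactors is.

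Markers of other cells the sort could hold were low or moved as follows, as sums of CPM over each list. Monocyte markers, with Chil3 and Plac8 highest, summed to between 0.276 and 2.14 in WT and between 0.434 and 42.4 in IRF8KO, and neutrophil markers, carried by Csf3r with S100a8 next, to between 651 and 999.6 and between 871 and 1290. Neuronal markers (Rbfox3 and Syt1 highest) lay between 0.637 and 8.96 and between 21.1 and 26.4, and astrocyte markers (Aldoc and Gfap) between 8.92 and 90.02 and between 115 and 194. Oligodendrocyte markers (Mbp and Cnp) lay between 284 and 696 and between 475 and 687, although Cnp fell from 186 ± 79.8 to 45.2 ± 14.8 CPM (SD, n = 3 each, adjusted p = 0.0028, edgeR) and Mbp was at 152 ± 116 and 437 ± 95.2 CPM (adjusted p = 0.056). Endothelial markers (Ly6a and Pecam1) lay between 25.2 and 36.5 and between 45.7 and 58.0, a sum of opposite changes, since Ly6a rose from 6.36 ± 0.224 to 45.7 ± 8.81 CPM (SD, n = 3 each, adjusted p = 1.5e-04, edgeR) and Pecam1 fell. Red blood cell genes (Hbb-bs and Hba-a1) lay between 0 and 57.6 and between 53.8 and 437. In each pair WT comes before IRF8KO, and the part of these cells in the results above was not tested.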

How the data were processed

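The deposited files hold raw counts per gene, made by the authors, 1 file per library, laid out as gene count output of STAR, an aligner. Per the submitters' processing notes, STAR 2.5.2b, Picard 2.17.11, featureCounts and the build mm10 were used, with no role given to each. The annotation release is not given in the sources used here. Per the labels' protocols, cDNA was made with SMART-Seq v4 from polyadenylated RNA and tagged with Nextera XT, which keeps no strand, so the counts that ignore strand were used (49.8% to 50.3% of stranded counts fell on 1 strand setting). Of 49585 identifiers, 49326 matched GENCODE M21 (GRCm38), the source of symbols, coordinates, lengths and overlaps.

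Counts were tested in all 6 libraries with edgeR 4.0.16 (R 4.3.3): default filter (minimum count 10), TMM scaling, quasi-likelihood test on genotype with no covariate, Benjamini-Hochberg adjustment over 11041 genes, 2-sided, called under 0.05. Standard errors were derived from the F statistic. The procedure was tested on simulated data. CPM per kb divides CPM by merged exon length. DESeq2 1.42.0, limma-voom 3.58.1 and 14 other alternatives were run. Replicates of 1 group were never alike within sampling noise (chi-square per degree of freedom at least 8.57).

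The 9 genes, the lists and the tests were chosen with earlier results of these data known. Named genes are the 9, Irf8, the 4 smallest p-values among called genes of each list, the 2 highest markers per cell type, and the 3 genes most correlated with a called member; other names with values (such as Naaa, P2ry12, Tcf3, Csf1r as a target, genes at or near 0 and the neighbours of Batf3) were chosen after their values were seen. The labels say that each brain gave its own sample.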

Additional observations from a re-analysis of the deposited data

How the results depend on the processing

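The fall of Batf3 kept its direction and call in all 15 alternatives that could test it, with log2 fold changes from -5.89 to -3.94. With at least 10 counts in every library, Batf3 and Ikzf2 could not be tested. Batf, Batf2, Ikzf2 and Id2 kept their direction and stayed uncalled in every alternative run. Replicate numbers were shared between genotypes, but only 2 of the 3 same-numbered pairs deviated together (correlations of deviations -0.260, 0.328 and 0.114), so the numbers were not taken to pair the samples. The replicate block gave -4.87 for Batf3 and called Ikzf1 (-1.56, adjusted p = 0.015, edgeR), which made 2 called members, and moved all calls from 2109 to 2353. It lost the 1 call among E and ID proteins (0).

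Ikzf1 was also called with DESeq2 (-1.50), without a filter (-1.52) and with at least 10 counts in every library (-1.57), and 2 members were called with DESeq2 and without a filter. Library size alone called Spi1 (-0.71), giving 2 called members, 651 genes higher and 1908 lower against 1064 and 1045, and 4 Ikaros cofactors, 2 E or ID proteins, 4 joint targets and 4 dendritic circuit factors against 0, 1, 2 and 2. Under library size without Apoe these were 2, 0, 1 and 1, with 2 ETS factors against 4. Spi1 stood at -0.22 there and was not called, and 1233 genes were higher and 845 lower. That setting put the median of all tested genes at -0.13, beside -0.61 with Apoe kept in. Apoe had 8193, 16735 and 25640 counts in WT replicates 1, 2 and 3. It had 3033753, 2774298 and 3109838 in IRF8KO replicates 1, 2 and 3, where gene counts were 8994860, 10886054 and 11098363. With limma-voom 2 ETS factors and 0 E or ID proteins were called, and with DESeq2 size factors 0 E or ID proteins. At least 10 counts in every library gave 1 Ikaros cofactor, 0 E or ID proteins and 0 joint targets, with fewer genes tested. The GC and length offset gave 1 Ikaros cofactor and 4 joint targets. The cause of these shifts was not tested. Reversed values were those of Spi1 without WT replicate 3 (0.059), Gabpa with stranded counts (0.73), and Csf3r (-0.080) and Cadm1 (-0.059) with library size alone, which moved the median of all tested genes from -0.11 to -0.61, more than either gene's value lies below 0.

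Without 1 library, log2 fold changes ranged from -0.41 to 0.059 for Spi1 and from -2.12 to -1.16 for Ikzf1. Calls ranged from 1 to 2 members, 524 to 2168 genes higher, 386 to 1835 lower, 1 to 6 ETS factors, 1 to 6 JUN, FOS and ATF3 genes, 0 to 4 Ikaros cofactors, 0 to 1 E or ID proteins, 4 to 9 PU.1 targets, 2 to 3 joint targets and 0 to 3 circuit factors. A setting that leaves 2 libraries in a group assumes that both groups vary alike. At this depth no difference was detectable for Spib and Ikzf3, with at most 1 count in all.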
